A study of Rattus norvegicus with 12 samples.

Results

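Sprouty, Spred and dual-specificity phosphatase genes encode negative feedback regulators of the ERK kinase pathway, and their levels were followed here together with Etv5, a transcription factor gene of the same response. The genes were chosen by symbol as Spry1, Spry2, Spry4, Spred1, Spred2, Spred3, Dusp4, Dusp5, Dusp6 and Etv5, which made 10 of the 28727 named genes in the count table, and all 10 were among the 14669 genes with enough counts to be tested. RNA was sequenced from INS-1 832/13 cells, an insulin-secreting line derived from a rat insulinoma, which had been transduced with an adenovirus and kept at the stated glucose concentration for 48 h. ChREBPβ is the shorter, constitutively active form of ChREBP, a transcription factor that responds to glucose. The study used these libraries to explore how overexpressed ChREBPβ relates to β-cell proliferation and death. In another experiment it reported cell death in this line with the ChREBPβ virus, and the part of cell death in the results below was not tested. The 4 groups were GFP virus at 2 mM glucose, GFP virus at 11 mM glucose, ChREBPβ virus at 2 mM glucose and ChREBPβ virus at 11 mM glucose, with 3 libraries each, named a, b and c. Every group had therefore been transduced with a virus and no untransduced cells were among the libraries. By the study's methods the ChREBPβ virus carried a mouse sequence tagged with mCherry, and all libraries came from a single tumour-derived line, so they show that line and not primary β-cells.

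Growth factor receptors pass their signal through Ras, Raf and MEK to the ERK kinases, and active ERK turns on genes whose products act back on the pathway. Sprouty and Spred proteins restrain the step from receptor to Raf, while Dusp4, Dusp5 and Dusp6 remove the activating phosphates from ERK, Dusp4 and Dusp5 in the nucleus and Dusp6 in the cytoplasm. Etv5 is an ETS factor of the Pea3 family that is commonly read as a transcript of growth factor signalling. Levels of these transcripts are often used as a readout of ERK activity, which was itself not measured in these libraries.

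The ETS factors that ERK acts on bind a short core, and it was looked up in the promoter windows of RefSeq's GRCr8 assembly, which run from 250 bases before to 50 bases after an annotated start. Of the 10 genes, 9 (all but Dusp4) matched and gave 10 windows, as Spry2 has a pair of annotated starts. The letters CCGGAA, searched on both strands, were present in 3 of the 10 windows, those of Dusp5, Spry4 and the upstream start of Spry2, and in 15% of all 33469 windows. The match lay 171 bases before the start in Spry2, 81 bases before it in Spry4 and 4 bases after it in Dusp5. Neither the ChREBP-type E-box CACGTG, the cyclic AMP response element TGACGTCA nor the AP-1 site TGAGTCA was found in any of the 10 windows, against 6.42%, 1.83% and 4.63% of all windows, and none of these motifs contains another. A pair of windows with the core, from genes that were higher in ChREBPβ libraries, are shown with the core in capitals, beside that of Spry1, which was lower there and whose window does not hold the core. The windows of Dusp6 and Spred1, which were also higher, and the other window of Spry2 hold no core either. They are read 5′ to 3′ on the strand of the gene, so TTCCGG marks a core on the other strand.
Spry2, chr15:89111877-89112176, minus strand, GRCr8: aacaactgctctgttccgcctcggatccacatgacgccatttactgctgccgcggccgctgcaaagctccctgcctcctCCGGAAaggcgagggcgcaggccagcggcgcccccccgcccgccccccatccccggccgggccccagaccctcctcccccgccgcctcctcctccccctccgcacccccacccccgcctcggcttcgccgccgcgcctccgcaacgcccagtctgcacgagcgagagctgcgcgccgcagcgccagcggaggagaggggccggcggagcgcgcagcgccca
Dusp5, chr1:262543524-262543823, plus strand, GRCr8: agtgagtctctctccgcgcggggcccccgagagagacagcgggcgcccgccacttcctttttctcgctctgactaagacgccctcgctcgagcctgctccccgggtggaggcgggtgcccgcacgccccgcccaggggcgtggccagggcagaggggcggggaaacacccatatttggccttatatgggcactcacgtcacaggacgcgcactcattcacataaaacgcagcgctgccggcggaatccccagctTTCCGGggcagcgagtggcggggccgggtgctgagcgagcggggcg
Spry1, chr2:122485097-122485396, plus strand, GRCr8: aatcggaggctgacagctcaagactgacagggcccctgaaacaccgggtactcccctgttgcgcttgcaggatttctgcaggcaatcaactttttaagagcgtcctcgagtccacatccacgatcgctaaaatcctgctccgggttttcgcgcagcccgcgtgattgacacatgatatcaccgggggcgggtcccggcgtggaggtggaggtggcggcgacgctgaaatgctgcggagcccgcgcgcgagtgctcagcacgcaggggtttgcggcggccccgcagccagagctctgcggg
A match is a stretch of letters and not a measured binding site, and factor binding was not measured in these libraries.

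Library totals ran from 25754488 to 60531215 counts, and the libraries of GFP at 2 mM were shallower (at most 32938546) than those of ChREBPβ at 11 mM (at least 57088794). The row of rat Mlxipl, the gene of ChREBP, did not rise with the ChREBPβ virus: it spanned 240.4 to 277.1 CPM (counts scaled by library total and TMM factor) in GFP at 2 mM, 201.9 to 212.5 in GFP at 11 mM, 198.7 to 211.8 in ChREBPβ at 2 mM and 180.7 to 200.7 in ChREBPβ at 11 mM. Virus identity therefore rests on the labels and on ChREBP target genes, such as Pklr, which spanned 126.2 to 133.1 CPM in GFP and 405.6 to 425.7 CPM in ChREBPβ at 2 mM, and directions below are those of libraries labelled ChREBPβ. The genes listed as β-cell markers were Ins1, Ins2, Iapp, Pdx1, Nkx6-1, Slc2a2 and Chga, all 7 detected. Their sum was 23100 to 26000 CPM in GFP at 2 mM and 18800 to 20600 in GFP at 11 mM. It was 12400 to 12900 in ChREBPβ at 2 mM and 11800 to 12300 in ChREBPβ at 11 mM. Ins1 and Chga made up most of that sum, and 6 of the 7 were lower with ChREBPβ at either concentration while Slc2a2, the glucose transporter gene, was higher (437.5 ± 13.8 against 617.9 ± 18.2 CPM at 2 mM). Of 4 markers of other islet cells, Gcg fell from 1624 ± 39.1 to 433.2 ± 6.08 CPM at 2 mM, and at 11 mM from 1657 ± 57.6 to 477.8 ± 25.8 CPM, Sst and Ppy were near 0, Ghrl was at 1.28 ± 0.552 and 1.84 ± 0.173 CPM at 2 mM, and fibroblast markers stayed at or below 0.179 CPM with Dcn and Lum at 0 in every library. The part of these shifts in the results below was not tested, and in bulk RNA fewer cells of a type and less RNA per cell cannot be told apart. The labels do not say whether libraries a, b and c came from separate cultures. The legend of the study's RNA-seq figure describes its values as averages over 3 independent experiments. The p-values measure the spread between these libraries.

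With the ChREBPβ virus, 6 of the 10 feedback genes were higher and 2 lower at 2 mM glucose, and 6 were higher and 1 lower at 11 mM. A gene was counted when its adjusted p, from edgeR's quasi-likelihood test (Benjamini-Hochberg, all tested genes), was under 0.05 and it changed by at least 1.2-fold. Of all tested genes, 21.0% were higher and 23.2% lower by this rule at 2 mM, and 14.3% were higher and 19.1% lower at 11 mM. The 10 genes, and the lists set beside them below, were chosen with earlier results of these data known. Their counts and medians, here and below, are therefore given as a description. The median log2 fold change of the 10 genes was 0.457 at 2 mM and 0.391 at 11 mM, beside -0.0168 and -0.0173 for all tested genes. Dusp4 moved far more than the others, and Spry1 at both concentrations and Etv5 at 2 mM moved against the rest. Scaling by library totals instead of TMM factors turned the direction of no gene that passed the test, while Spred2 and Spred3, near 0 at 2 mM, moved to -0.10 and -0.09. It lowered the share of higher genes among all those counted from 47.5% to 33.2% at 2 mM and from 42.9% to 29.3% at 11 mM.

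**Figure D1:**
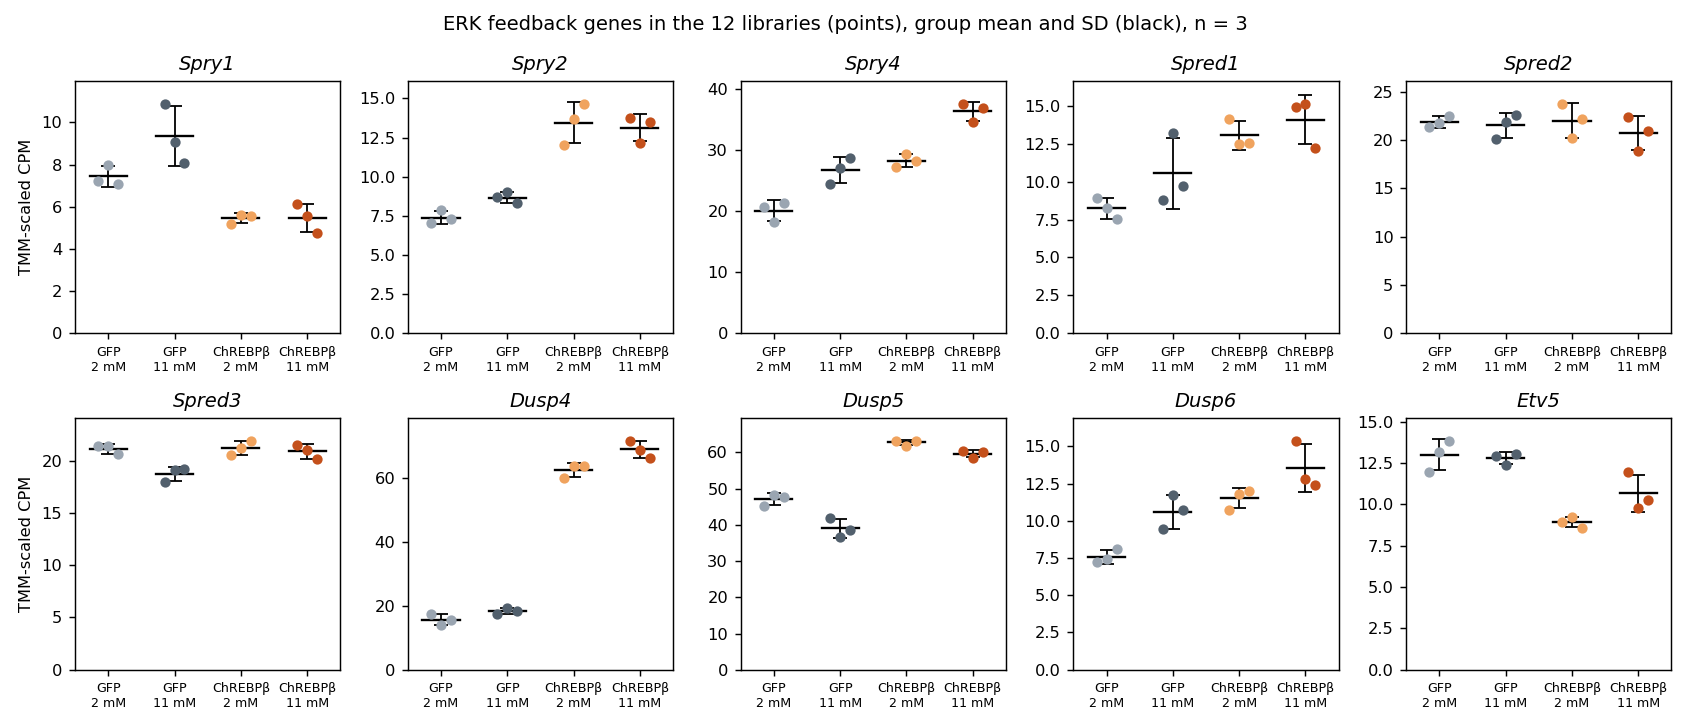
TMM-scaled CPM (y axis, from 0) of each of the 10 genes in the 4 groups (x axis), with a point for each library and black bars for the mean and SD of 3. Dusp4 sits between 14.02 and 19.2 CPM in the GFP libraries and between 60.2 and 71.7 CPM in the ChREBPβ libraries, Spry1 and Etv5 are lower with ChREBPβ at 2 mM, and Spred2 stays between 18.8 and 23.7 CPM throughout.

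Dusp4, which encodes a nuclear phosphatase of ERK, rose the most. It was at 17.4, 14.02 and 15.6 CPM in the GFP libraries at 2 mM and at 60.2, 63.9 and 63.6 CPM in the ChREBPβ libraries at 2 mM. At 11 mM it was at 17.5, 19.2 and 18.3 CPM with GFP and at 71.7, 69.0 and 66.2 CPM with ChREBPβ. The lowest ChREBPβ library was thus far above the highest GFP library at either glucose concentration. The fold change was 4.02 at 2 mM (log2 2.01 ± 0.0662, SE; edgeR adjusted p = 1.72e-15) and 3.76 at 11 mM (log2 1.91 ± 0.0624; edgeR adjusted p = 2.49e-15). By fold change Dusp4 ranked 281 from the top of the 14669 tested genes at 2 mM and 208 at 11 mM. It was the only one of the 10 genes to change by at least 2-fold, and it did so in all 4 comparisons of a ChREBPβ group with a GFP group.

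Dusp5, the other nuclear ERK phosphatase of the set, rose less. Its levels were 45.2, 48.2 and 47.8 CPM in GFP and 63.1, 61.9 and 63.3 CPM in ChREBPβ at 2 mM, and 41.8, 36.8 and 38.5 CPM in GFP and 60.4, 58.6 and 60.0 CPM in ChREBPβ at 11 mM. The libraries of the viruses did not overlap at either concentration. The log2 fold changes were 0.41 ± 0.0503 (edgeR adjusted p = 7.14e-07) at 2 mM glucose and 0.61 ± 0.0496 (edgeR adjusted p = 3.35e-09) at 11 mM glucose. Dusp5 was also the only one of the 10 genes counted as lower at 11 than at 2 mM glucose in the GFP libraries. In GRCr8 it shares its locus with the long non-coding gene LOC134485251, which has no row of that name in the count table, and the strand setting of the counting is not given in the sources used here, so reads of both may have been counted together.

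Dusp6, the cytoplasmic phosphatase that is specific for ERK, was at 7.203, 7.44 and 8.08 CPM in GFP and at 10.7, 11.8 and 12 CPM in ChREBPβ at 2 mM. At 11 mM it was at 9.42, 11.7 and 10.7 CPM in GFP and at 15.4, 12.8 and 12.4 CPM in ChREBPβ. The ChREBPβ libraries were above the GFP libraries at both glucose concentrations, with a narrow gap at 11 mM. The log2 fold change was 0.61 ± 0.104 (edgeR adjusted p = 4.46e-05) at 2 mM glucose and 0.35 ± 0.0938 (edgeR adjusted p = 0.00383) at 11 mM glucose. Without ChREBPβ library a at 11 mM, the highest of the 12, the latter fell to 0.25, under the 1.2-fold minimum.

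The Sprouty genes Spry2 and Spry4 were both higher with ChREBPβ. Spry2 was at 7.02, 7.84 and 7.28 CPM in GFP and at 12.03, 13.7 and 14.6 CPM in ChREBPβ at 2 mM, and at 8.69, 8.999 and 8.29 CPM in GFP and at 13.8, 12.2 and 13.5 CPM in ChREBPβ at 11 mM. Its log2 fold change was 0.87 ± 0.0906 (edgeR adjusted p = 8.12e-08) at 2 mM glucose and 0.60 ± 0.0844 (edgeR adjusted p = 6.55e-06) at 11 mM glucose. Every ChREBPβ library exceeded every GFP library. Spry4 was at 20.7, 18.2 and 21.4 CPM in GFP and at 27.2, 29.4 and 28.2 CPM in ChREBPβ at 2 mM, and at 24.4, 27.2 and 28.7 CPM in GFP and at 37.6, 34.7 and 36.9 CPM in ChREBPβ at 11 mM. Its log2 fold change was 0.50 ± 0.0718 (edgeR adjusted p = 6.12e-06) at 2 mM glucose and 0.44 ± 0.0667 (edgeR adjusted p = 1.57e-05) at 11 mM glucose, again without overlap at the same glucose concentration.

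Spry1, the remaining Sprouty gene of the set, went the other way. It was at 7.24, 7.99 and 7.08 CPM in GFP and at 5.19, 5.62 and 5.55 CPM in ChREBPβ at 2 mM. At 11 mM it was at 10.9, 9.05 and 8.08 CPM in GFP and at 6.11, 5.56 and 4.77 CPM in ChREBPβ. All 6 ChREBPβ libraries lay below all 6 GFP libraries. The log2 fold change was -0.44 ± 0.122 (edgeR adjusted p = 0.00423) at 2 mM glucose and -0.77 ± 0.114 (edgeR adjusted p = 1.3e-05) at 11 mM glucose. It was also the gene with the lowest count behind a value, 145 reads in ChREBPβ library a at 2 mM, for which an exact 95% Poisson interval runs from 122 to 171 and covers counting error only.

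The 3 Spred genes, which encode membrane-bound relatives of Sprouty that restrain Ras and Raf, did not move together. Spred1 was at 8.93, 8.28 and 7.57 CPM in GFP and at 14.2, 12.5 and 12.6 CPM in ChREBPβ at 2 mM, and the log2 fold change of 0.66 ± 0.129 passed the test (edgeR adjusted p = 0.000205). At 11 mM it was at 8.78, 13.2 and 9.71 CPM in GFP and at 14.99, 15.2 and 12.2 CPM in ChREBPβ, where the lowest ChREBPβ library lay below the highest GFP library, although the log2 fold change of 0.43 ± 0.118 passed the test (edgeR adjusted p = 0.00525). Spred1 was the most variable of the 10 genes between libraries of a group, with a biological coefficient of variation of 9.56% against 4.04% for Dusp5, the lowest. Spred2 lay between 18.8 and 23.7 CPM in all 12 libraries. Its log2 fold change had a 95% interval from -0.157 to 0.161 at 2 mM and from -0.207 to 0.0984 at 11 mM, so a change of 1.2-fold in either direction lies outside the intervals. Spred3 lay between 17.9 and 21.9 CPM, with an interval from -0.113 to 0.135 at 2 mM, and its log2 fold change of 0.16 at 11 mM (edgeR adjusted p = 0.0289) was under the 1.2-fold minimum. In GRCr8 Spred1 overlaps the pseudogene Eno1-ps25 and Spred3 the protein-coding gene LOC103689966, neither named in the count table, so their counts may hold reads of the neighbour.

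Etv5 was lower with ChREBPβ. It was at 11.98, 13.2 and 13.8 CPM in GFP and at 8.95, 9.22 and 8.60 CPM in ChREBPβ at 2 mM, a log2 fold change of -0.54 ± 0.0877 (edgeR adjusted p = 2.41e-05). At 11 mM it was at 12.9, 12.4 and 13.0 CPM in GFP and at 11.9, 9.77 and 10.3 CPM in ChREBPβ. The groups did not overlap there either, but the log2 fold change of -0.26 ± 0.0822 (edgeR adjusted p = 0.0124) fell just short of 1.2-fold. It passed that minimum with library totals as scale (-0.35), without a filter on low counts (-0.26), without GFP library b at 11 mM (-0.28) and without ChREBPβ library a at 11 mM (-0.35). The libraries of the viruses did not overlap for 8 of the 10 genes at 2 mM, where 63.3% of tested genes did not, and for 8 of 10 at 11 mM, where 56.1% did not.

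**Figure D2:**
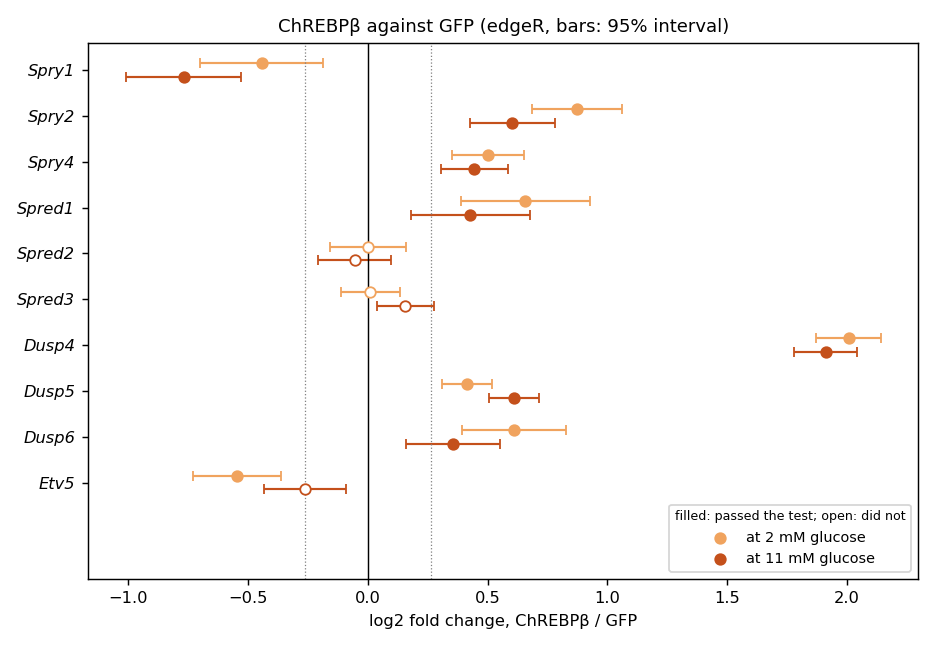
Log2 fold change of ChREBPβ over GFP (x axis) for each of the 10 genes at 2 mM (light) and 11 mM glucose (dark), with 95% intervals from edgeR, filled where the gene passed the test and open where it did not. Dotted lines mark 1.2-fold, and Dusp4 stands at 2.01 and 1.91 while Spry1 stands at -0.44 and -0.77.

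In the GFP libraries, 4 of the 10 genes were higher at 11 than at 2 mM glucose and 1 was lower, where 10.2% of all tested genes were higher and 10.0% lower. The median log2 fold change of the 10 genes was 0.229, beside -0.00241 for all tested genes. Dusp6 rose by a log2 fold change of 0.48 ± 0.105 (edgeR adjusted p = 0.00129) and Spry4 by 0.42 ± 0.0721 (edgeR adjusted p = 0.000151), and all 3 libraries at 11 mM were above all 3 at 2 mM for both. Dusp5 fell by 0.27 on the log2 scale (SE 0.0513; edgeR adjusted p = 0.000379), also without overlap. This change stayed just above the 1.2-fold minimum and passed under it without GFP library b (-0.25) or c (-0.26) at 2 mM or without b (-0.23) or c (-0.26) at 11 mM.

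Spry1 and Spred1 had the highest adjusted p of the 5 glucose calls. Spry1 rose by 0.33 ± 0.117 (edgeR adjusted p = 0.0374) without overlap, and the value was 0.20 without GFP library a at 11 mM, its highest library, with an adjusted p of 0.229. Spred1 rose by 0.35 ± 0.131 (edgeR adjusted p = 0.0452), but library a at 11 mM (8.78 CPM) lay within the libraries at 2 mM, and without library b at 11 mM (13.2 CPM) the value was 0.17 with an adjusted p of 0.274. Dusp4 was higher in all 3 libraries at 11 mM and its log2 fold change of 0.23 ± 0.0705 (edgeR adjusted p = 0.0149) was under the 1.2-fold minimum, which it passed without GFP library a at 2 mM (0.31) or at 11 mM (0.27). The log2 fold change of Spry2 was 0.23 (edgeR adjusted p = 0.0713), that of Spred3 -0.17 (edgeR adjusted p = 0.0302, under 1.2-fold), that of Spred2 -0.02 (95% interval -0.182 to 0.136) and that of Etv5 -0.02 (95% interval -0.203 to 0.153). The libraries at 2 and 11 mM did not overlap for 7 of the 10 genes, against 42.0% of all tested genes.

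In the ChREBPβ libraries, Spry4 alone passed the test between 2 and 11 mM glucose, where 0.988% of all tested genes were higher and 2.88% lower. It rose by a log2 fold change of 0.36 ± 0.0664 (edgeR adjusted p = 0.00174), with 27.2 to 29.4 CPM at 2 mM and 34.7 to 37.6 CPM at 11 mM. The libraries of Dusp6 and Dusp4 at 11 mM also lay above those at 2 mM under both viruses. Dusp6 had a log2 fold change of 0.23 (95% interval 0.0317 to 0.42; edgeR adjusted p = 0.164), Dusp4 of 0.14 (0.0186 to 0.258; adjusted p = 0.167) and Etv5 of 0.26 (0.0808 to 0.436; adjusted p = 0.0722), and DESeq2 gave Etv5 an adjusted p of 0.0414. The values of Spry1 (0.002) and Spry2 (-0.04) lay near 0, with intervals from -0.247 to 0.251 and from -0.214 to 0.125. The libraries did not overlap for 5 of the 10 genes, against 28.9% of all tested genes. The median of the 10 genes was 0.0612, beside 0.00303 for all tested genes.

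**Figure D3:**
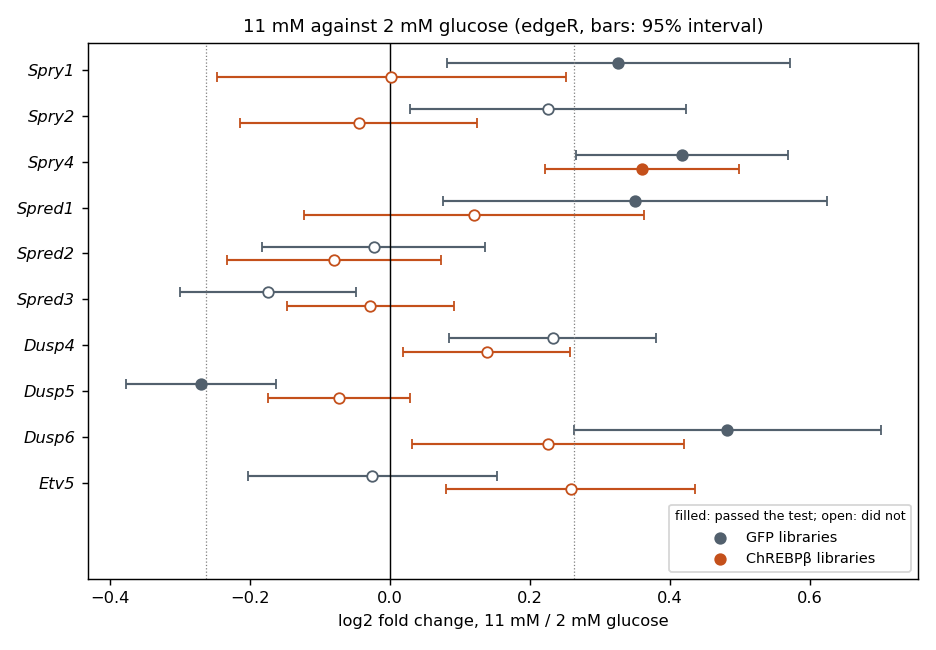
Log2 fold change from 2 to 11 mM glucose (x axis) for each of the 10 genes in the GFP libraries (grey) and in the ChREBPβ libraries (orange), with 95% intervals from edgeR, filled where the gene passed the test. Spry4 is the only gene filled for both viruses, at 0.42 and 0.36, and the dotted lines mark 1.2-fold.

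The difference between the ChREBPβ effects at 11 and 2 mM was tested as an interaction, which is equally the difference between the glucose effects under the viruses. None of the 10 genes passed it with edgeR (0 of 10) or with DESeq2 (0 of 10), where 1.56% of all tested genes were higher and 4.74% lower. At an unadjusted p under 0.05 edgeR counted 3 of them, Spry2, Dusp5 and Etv5, and DESeq2 counted 2, Dusp5 and Etv5. The interaction of Spry2 was -0.27 (95% interval -0.53 to -0.0105), that of Dusp5 0.20 (0.0497 to 0.345) and that of Etv5 0.28 (0.0315 to 0.534), on the log2 scale. For Dusp4 it was -0.09 (-0.284 to 0.0959) and for Spry4 -0.06 (-0.262 to 0.148). A different response to glucose under the viruses was therefore not shown for any of the 10 genes, and for Spry1 and Dusp6, at -0.32 and -0.26, the intervals reached down to -0.674 and -0.549.

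The remaining pairs of groups differ in both virus and glucose and share their libraries with the comparisons above. Between ChREBPβ at 11 mM and GFP at 2 mM, 6 of the 10 genes were higher and 2 lower, where 23.7% of all tested genes were higher and 26.8% lower. The log2 fold changes were 2.14 for Dusp4, 0.86 for Spry4, 0.84 for Dusp6, 0.83 for Spry2, 0.78 for Spred1 and 0.34 for Dusp5, and -0.44 for Spry1 and -0.29 for Etv5. Between ChREBPβ at 2 mM and GFP at 11 mM, 4 were higher and 2 lower, where 12.2% of all tested genes were higher and 14.8% lower. Of all genes counted, 46.9% were higher in the former and 45.2% in the latter, and 33.4% and 33.0% with library totals as scale. In the latter Dusp4 (1.77), Dusp5 (0.68), Spry2 (0.65) and Spred1 (0.31) were higher and Spry1 (-0.77) and Etv5 (-0.52) lower. Spred1 there had an adjusted p of 0.0481 by edgeR and overlapping libraries, and its value was 0.19 without GFP library a at 11 mM, no longer past the test. Spry4 and Dusp6 did not pass, with 95% intervals from -0.0596 to 0.226 and from -0.0732 to 0.33.

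The order of the group means differed between genes. For Spry4 and Dusp6 it ran from GFP at 2 mM (20.1 ± 1.69 and 7.57 ± 0.453 CPM, SD, n = 3) through GFP at 11 mM (26.8 ± 2.19 and 10.6 ± 1.14) and ChREBPβ at 2 mM (28.3 ± 1.1 and 11.5 ± 0.675) to ChREBPβ at 11 mM (36.4 ± 1.53 and 13.5 ± 1.62). The middle pair of groups in that order did not pass the test for either gene, nor did the last pair for Dusp6. Dusp4 and Spred1 ran in the same order of means, but Dusp4 split by virus, at 15.7 ± 1.7 and 18.3 ± 0.845 CPM with GFP and at 62.6 ± 2.1 and 69.0 ± 2.76 CPM with ChREBPβ. Spry2 split in the same way, at 7.38 ± 0.422 and 8.66 ± 0.355 CPM with GFP and at 13.4 ± 1.32 and 13.1 ± 0.86 CPM with ChREBPβ, where glucose passed the test under neither virus. Dusp5 was lowest in GFP at 11 mM (39.0 ± 2.55 CPM), followed by GFP at 2 mM (47.1 ± 1.64), ChREBPβ at 11 mM (59.7 ± 0.94) and ChREBPβ at 2 mM (62.8 ± 0.758). The last pair did not pass the test. Spry1 was highest in GFP at 11 mM (9.34 ± 1.42 CPM) and lowest in the ChREBPβ groups (5.45 ± 0.228 and 5.48 ± 0.67). Etv5 was alike in the GFP groups (13.0 ± 0.943 and 12.8 ± 0.357 CPM) and lowest in ChREBPβ at 2 mM (8.92 ± 0.312).

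Ratios of raw counts inside a library do not depend on how libraries are scaled, and 3 pairs that moved apart were set against each other after their values had been seen, so the ratios are given as a description. The ratio of Spry2 to Spry1 reads was 0.970, 0.982 and 1.03 in GFP and 2.32, 2.43 and 2.64 in ChREBPβ at 2 mM, and 0.799, 0.994 and 1.03 in GFP and 2.25, 2.19 and 2.83 in ChREBPβ at 11 mM. The balance of the Sprouty genes was thus 2.48-fold higher with ChREBPβ at 2 mM and 2.57-fold higher at 11 mM, while the fold from 2 to 11 mM glucose was 0.941 with GFP and 0.979 with ChREBPβ. The ratio of Dusp6 to Etv5 reads, both transcripts used as readouts of ERK activity, was 0.583 ± 0.018 and 0.832 ± 0.11 in GFP at 2 and 11 mM and 1.29 ± 0.1 and 1.27 ± 0.059 in ChREBPβ (SD, n = 3). The ratio of Dusp4 to Dusp10 reads was 0.416 ± 0.066 and 0.752 ± 0.053 in GFP and 4.39 ± 0.17 and 5.89 ± 0.58 in ChREBPβ. Dusp10 encodes a phosphatase that acts on the stress kinases JNK and p38.

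**Figure D4:**
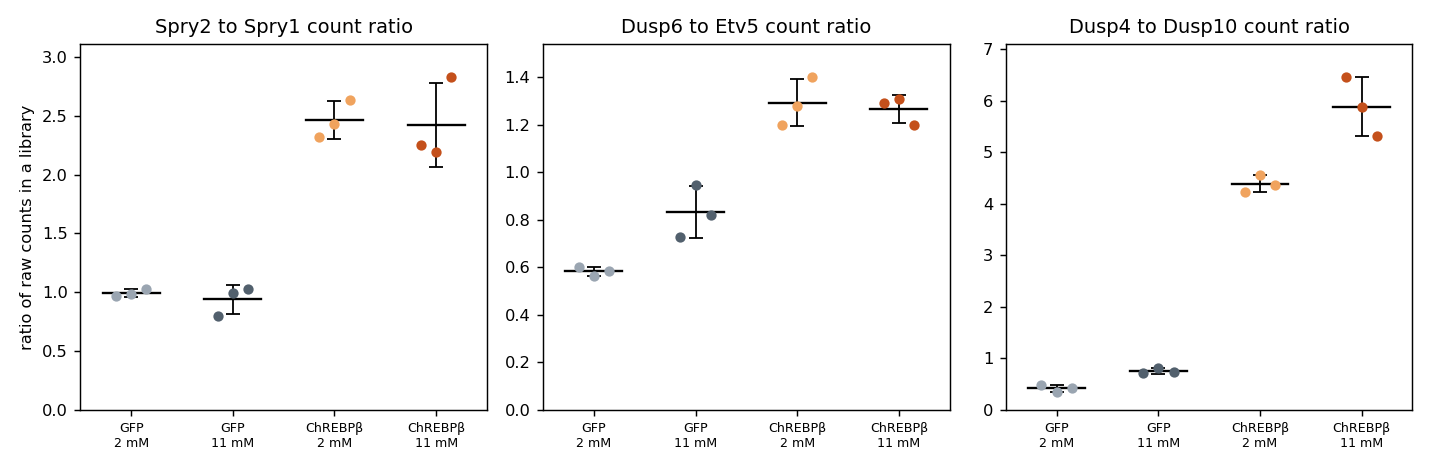
Ratio of raw counts of a pair of genes within each library (y axis, from 0, no scaling) by group (x axis), with a point for each library and black bars for the mean and SD of 3. All 6 ChREBPβ libraries lie above all 6 GFP libraries in each panel, from 2.19 to 2.83 for Spry2 to Spry1, from 1.2 to 1.4 for Dusp6 to Etv5 and from 4.23 to 6.46 for Dusp4 to Dusp10.

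Most of the other MAP kinase phosphatases that were tested did not rise with Dusp4, Dusp5 and Dusp6, while Dusp7 rose at 11 mM. Of 7, 5 were tested, and 4 of these were lower with ChREBPβ at 2 mM, with a median log2 fold change of -0.436. Dusp10 fell from 37.9 ± 2.41 to 14.3 ± 0.278 CPM at 2 mM (log2 -1.41; edgeR adjusted p = 2.77e-13), and at 11 mM it fell from 24.4 ± 0.607 to 11.8 ± 0.686 CPM (log2 -1.06; edgeR adjusted p = 3.68e-11). Dusp1, an immediate early phosphatase, fell by 0.45 on the log2 scale at 2 mM (edgeR adjusted p = 6.65e-06), and its value at 11 mM was -0.19, under 1.2-fold. Dusp8 was lower at both concentrations (-0.44 and -0.35), Dusp16 at 2 mM (-0.28), and Dusp7, a cytoplasmic relative of Dusp6, was higher at 11 mM (0.28; edgeR adjusted p = 0.0023). The list counted 1 higher and 2 lower at 11 mM, with a median of -0.221. Over all tested genes, 21.0% were higher and 23.2% lower at 2 mM, and 14.3% and 19.1% at 11 mM. Dusp10 was lower at 11 than at 2 mM glucose under both viruses, by -0.63 with GFP and -0.28 with ChREBPβ, and Dusp1 with GFP (-0.42).

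Of 7 other feedback inhibitors of receptor signalling, all tested, 2 were higher and 1 lower with ChREBPβ at 2 mM. At 11 mM 2 were higher, and the medians were 0.116 and 0.137. Among all tested genes 21.0% were higher and 23.2% lower at 2 mM, and 14.3% and 19.1% at 11 mM. The higher genes were Errfi1, whose product blocks EGF receptor kinases (from 39.2 ± 2.58 to 67.0 ± 1.26 CPM at 2 mM, and at 11 mM from 43.4 ± 1.02 to 70.7 ± 1.46 CPM), and Lrig1, which promotes loss of the same receptors (log2 0.40 and 0.49). Errfi1 changed by 0.77 (edgeR adjusted p = 7.7e-11) and 0.70 (2.67e-10) on the log2 scale. Spry3 was the lower gene at 2 mM (-0.47; edgeR adjusted p = 0.0424). Its value at 11 mM was -0.36 (edgeR adjusted p = 0.133). Il17rd, Rasa1, Nf1 and Cbl passed at neither concentration.

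Of 21 genes of the Ras to ERK cascade and its adaptors, 5 were higher and 2 lower with ChREBPβ at 2 mM. At 11 mM 4 were higher and 2 lower, and the medians were 0.0991 and 0.105. The shares over all tested genes were 21.0% higher and 23.2% lower at 2 mM, and 14.3% and 19.1% at 11 mM. Mapk3, which encodes an ERK kinase, went from 239.8 ± 25.2 to 383.2 ± 3.83 CPM at 2 mM, and at 11 mM from 250.5 ± 4.29 to 394.3 ± 13.6 CPM (log2 0.68 and 0.65; edgeR adjusted p = 1.8e-09 and 3.86e-09). Map2k1, the gene of MEK1, fell (-0.49 and -0.38), as did Rps6ka2, which encodes an RSK kinase downstream of ERK (-0.63 and -0.42). Sos1, a Ras exchange factor, rose (0.47 and 0.36), and so did Braf (0.30 and 0.36) and Rps6ka1 (0.32 and 0.30). Nras rose at 2 mM (0.28) and had a value of 0.13 at 11 mM (edgeR adjusted p = 0.0579).

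Other transcripts listed as responsive to ERK went both ways. That list also holds the ETS factor genes Elk1, Elk3 and Elk4, which passed the test with ChREBPβ at neither glucose concentration. Of its 17 genes, 16 were tested, and 5 were higher and 3 lower with ChREBPβ at 2 mM. At 11 mM 4 were higher and 3 lower, and the medians were 0.00223 and 0.139. Beside these counts, 21.0% of all tested genes were higher and 23.2% lower at 2 mM, and 14.3% and 19.1% at 11 mM. Ccnd1, the gene of cyclin D1, went from 1.64 ± 0.267 to 93.4 ± 7.25 CPM at 2 mM, and at 11 mM from 2.01 ± 0.344 to 129.9 ± 6.63 CPM (log2 5.82 and 6.01). Myc rose by 1.49 and 0.44, Ets2 by 0.57 and 0.48 and Epha4 by 0.50 and 1.119, and Fos was higher at 2 mM (0.64; edgeR adjusted p = 0.0374). Egr1, an immediate early factor, was lower (-1.06 and -0.70), as were Phlda1 (-1.12 and -0.67) and Etv1, a Pea3 family relative of Etv5 (-0.47 and -0.39). Etv4, the other relative, had values of -0.004 and -0.03, with edgeR adjusted p of 0.985 and 0.87.

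Among growth factors and receptors upstream of ERK, 12 of 15 were tested, and 2 were higher and 7 lower with ChREBPβ at 2 mM. At 11 mM 2 were higher and 6 lower, and the medians were -0.457 and -0.339. For all tested genes the shares were 21.0% higher and 23.2% lower at 2 mM, and 14.3% and 19.1% at 11 mM. Hbegf, an EGF receptor ligand, was at 18.2 ± 0.609 CPM in GFP at 2 mM, 54.1 ± 3.16 in GFP at 11 mM, 108.2 ± 2.4 in ChREBPβ at 2 mM and 142.0 ± 4.35 in ChREBPβ at 11 mM. ChREBPβ raised it by log2 fold changes of 2.57 at 2 mM and 1.39 at 11 mM, and glucose by 1.57 in GFP and 0.39 in ChREBPβ (edgeR adjusted p = 1.45e-18, 5.27e-15, 9.13e-14 and 2.07e-05). Egfr, the receptor for that ligand, fell (-0.93 and -0.59), and so did Igf1r (-1.06 and -0.86), Fgfr3 (-0.76 and -0.55), Met (-0.41 and -0.47) and the ligand gene Tgfa (-0.70 and -0.57). Fgfr1 was higher (0.35 and 0.33). Fgfr4 and Insr were lower at 2 mM (-0.50 and -0.41) and Btc at 11 mM (-0.44).

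**Figure D5:**
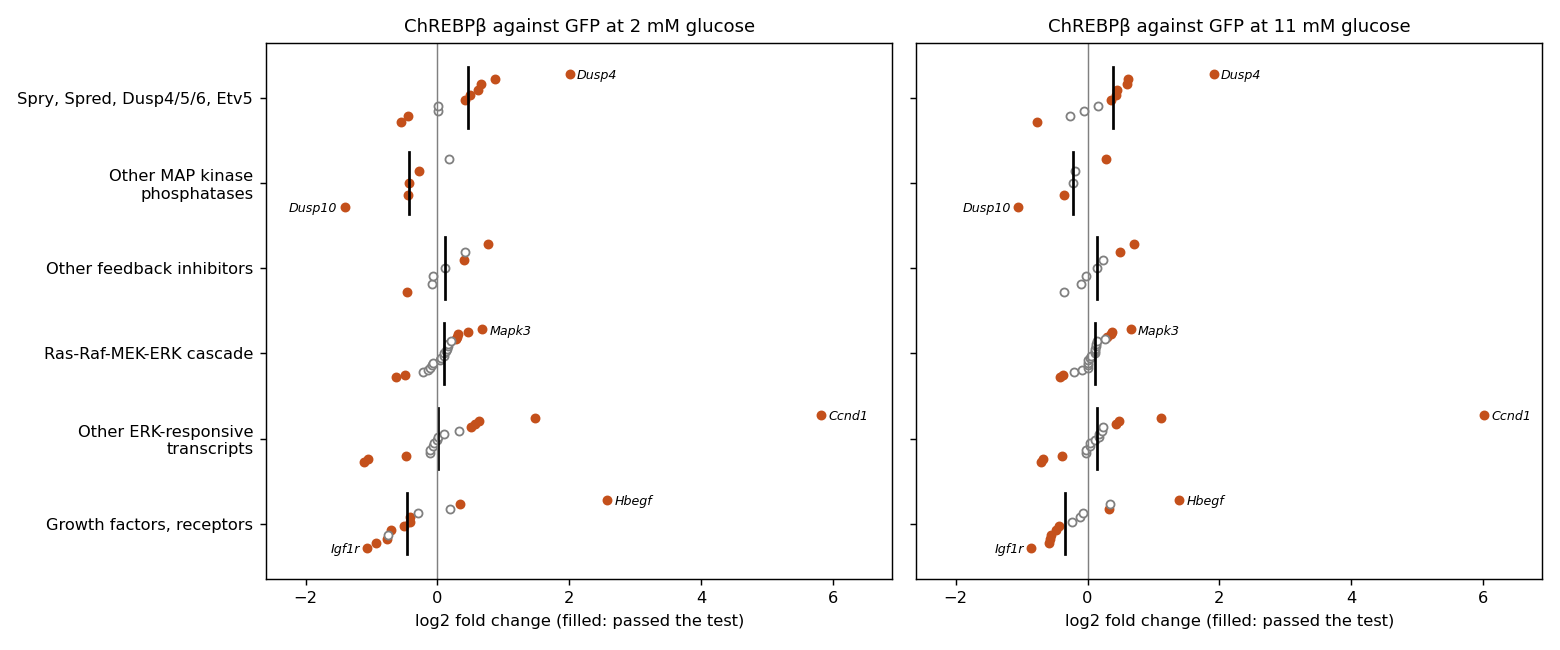
Log2 fold change of ChREBPβ over GFP (x axis) at 2 mM (left) and 11 mM glucose (right) for the 10 feedback genes and the tested genes of 5 further lists (rows), filled where the gene passed the edgeR test, with a black bar at each list's median. Medians at 2 mM are 0.457 for the 10 genes, -0.436 for other MAP kinase phosphatases and -0.457 for growth factors and receptors, and Ccnd1 stands apart at 5.82.

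With glucose, 13 of the 61 tested genes of these 5 lists (21.3%) passed the test in GFP and 9 (14.8%) in ChREBPβ. In GFP 10.2% of all tested genes were higher and 10.0% lower, so the share of the lists was near that of all genes. In ChREBPβ 0.988% of all tested genes were higher and 2.88% lower. In the GFP libraries 2 other MAP kinase phosphatases were lower, as was 1 other feedback inhibitor, Spry3 (-0.55; edgeR adjusted p = 0.0326), and 1 cascade gene was higher, Nras (0.27; edgeR adjusted p = 0.00123). Of the other ERK-responsive transcripts 3 rose, Myc (1.21), Fos (1.01, from 0.717 to 1.45 CPM) and Epha2 (0.56), and Phlda1 fell (-0.49). Of the growth factors and receptors Hbegf and Met (0.43) rose and Fgfr3 (-0.66), Fgfr4 (-0.68) and Egfr (-0.54) fell. In the ChREBPβ libraries the ERK-responsive list had 4 higher, namely Epha2 (0.78), Ccnd1 (0.47), Egr1 (0.42) and Ets1 (0.34). The growth factor list had 2 higher, Hbegf and Met (0.36), and 2 lower, Fgfr3 (-0.45) and Fgfr4 (-0.29).

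For Spry4 and Dusp6, the genes most like them in pattern were found by Pearson correlation of log2 CPM over the 12 libraries, among 10458 genes averaging 5 CPM or more. Likest to Spry4 were Kpna6 (r = 0.981), Ccng1 (0.976) and Prc1 (0.975), and 37 genes exceeded 0.95. Likest to Dusp6 were Spata5l1 (0.980), Nkrfl (0.973) and Pcdhb4 (0.970), and 39 genes exceeded 0.95. The libraries fall into 4 groups that every gene shares, so these values describe a shared order of groups. Ccng1, for example, was at 340.5 ± 10.6 CPM in GFP at 2 mM, 446.1 ± 9.95 in GFP at 11 mM, 498.8 ± 5.23 in ChREBPβ at 2 mM and 633.8 ± 22.1 in ChREBPβ at 11 mM.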

How the data were processed

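RNA of 12 libraries (4 groups of 3, grouped by their labels) was amplified and sequenced by the authors, who deposited raw read counts per gene; the submitters' processing notes name Rnor_6.0, while the aligner and the strand setting are not given in the sources used here. The table also holds other values, the authors' mean of each group, which equal the means of the 3 count columns (0 rows differ by over 0.001) and were not used. There were 0 other columns of single samples. The row without a gene name (0.0043% to 0.00601% of a library) was left out. The 10 genes and the lists beside them were chosen with earlier results of these data known.

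Genes were filtered with filterByExpr by group, scaled with TMM factors (0.958 to 1.06) and fitted in edgeR 4.0.16 (R 4.3.3) in 1 quasi-likelihood model of group over all 12 libraries, with Benjamini-Hochberg adjustment over 14669 genes in each comparison. A gene counted as changed with an adjusted p under 0.05 and at least 1.2-fold. Standard errors are the log2 fold change over the square root of F. The members of each list, and the 3 genes with the highest correlation with Spry4 and with Dusp6, were named. Alternatives were DESeq2 1.42.0, other scalings, filters and fold minimums, fits of the compared groups alone, a replicate block, and leaving out each library. The fit was tested on simulated data. Replicates of a group differed by more than sampling noise (chi-square per degree of freedom 3.13 to 17.6). Promoter windows came from RefSeq's GRCr8 tables, matched by symbol; no coordinates of Rnor_6.0 were used. No transcript lengths were used, so levels were not compared between genes.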

Additional observations from a re-analysis of the deposited data

Results flagged for a closer look

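By edgeR's interaction test, the ChREBPβ effect differed between glucose concentrations for 6 of the 70 tested genes of the lists set beside the feedback genes (8.57%), where 1.56% of all tested genes were higher and 4.74% lower. Values are the log2 effect at 11 mM minus that at 2 mM. The rise of Hbegf, the EGF receptor ligand, was smaller at 11 mM by -1.18 (edgeR adjusted p = 1.02e-09), and that of Myc by -1.05 (edgeR adjusted p = 3.47e-09). The decrease of the phosphatase gene Dusp10 was smaller at 11 mM by 0.35 (edgeR adjusted p = 0.0195), that of Phlda1 by 0.45 (edgeR adjusted p = 0.0202) and that of the receptor gene Fgfr4 by 0.39 (edgeR adjusted p = 0.00153). The decrease of Pdx1, a β-cell transcription factor and a marker of the line, was smaller at 11 mM by 0.28 (edgeR adjusted p = 0.00621). Groups of 3 libraries are too small for the test of a single outlying library, which was not run.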

How the results depend on the processing

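No alternative turned the direction of a gene that passed the test. The counts of the 10 genes past the test were 8 and 7 for ChREBPβ at 2 and 11 mM, 5 and 1 for glucose in GFP and ChREBPβ, and 8 and 6 for the remaining pairs of groups. They moved by over 1.5 times only as follows. With a 2-fold minimum they were 1 and 1 for ChREBPβ, 0 and 0 for glucose and 1 and 1 for the remaining pairs, Dusp4 in each case. DESeq2 counted 2 for glucose in ChREBPβ, adding Etv5. For glucose in GFP, library totals as scale and a fit of the compared groups alone each gave 3, losing Spry1 and Spred1, and leaving out a library gave 2 to 5, with 2 without GFP library c at 2 mM and 3 without GFP library b at 2 or at 11 mM. The replicate block gave the same counts as the fit without it, 8, 7, 5, 1, 8, 6 and 0 with the interaction. Whether the letters a, b and c pair the libraries was not settled. Same-letter correlations ran from -0.217 to 0.125 (1 of 18 over 0.1) and different-letter ones from -0.2 to 0.292 (3 of 36). The best match, chosen among the 3 libraries of another group, kept the letter in 20 of 36 cases. Over all single-gene values, 1282 stayed on their side of the test, 31 lost it and 7 passed it; 24 values near 0 (at most 0.0567 in size, none past the test) changed sign, 4 of them with library totals; without ChREBPβ library b or c at 11 mM or GFP library c at 2 mM, Etv5 in ChREBPβ at 11 mM against GFP at 2 mM was under 1.2-fold (-0.23, -0.26 and -0.24), as was Dusp5 with library totals (0.23). The cause was not tested.

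Over all genes, the counts in the order above and for the interaction were 6476, 4904, 2963, 567, 7407, 3955 and 925, and 1456, 992, 294, 28, 1866, 795 and 108 with a 2-fold minimum; with no minimum they were 5030 and 1100 for glucose and 6109 for ChREBPβ at 2 mM against GFP at 11 mM. Library totals as scale moved the median of all genes by at most -0.116. The 10 genes had 145 to 4206 reads per library.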
